A study of Rattus norvegicus with 25 samples.

Results

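Collagen and fibroblast matrix genes are the genes with which fibroblasts build and remodel connective tissue, here followed through the esophageal epithelium of rats given a carcinogen with or without tocopherols. The list held 39 genes, chosen by name: collagens, the glycoproteins, proteoglycans and elastic fibre proteins laid around them, the enzymes that process and crosslink them, and a few receptors and secreted proteins typical of fibroblasts. Of the 39, 31 had a named probe on the array and 30 of these were well above background on at least 5 of the 25 arrays and were tested, out of 12343 genes tested in all. All 30 were above background on all 25 arrays. Col5a2, Col4a2, Col6a1, Col6a3, Col12a1, Fbln2, Lox and Dpt had no named probe, and the Thbs1 probe was above background on 0 of the 25 arrays.

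RNA of the esophageal epithelium was hybridised, for each of 25 male rats of the F344 strain, to 1-colour Agilent arrays, with 1 array per rat and 5 rats per group. Control rats had a normal diet and no NMBA. NMBA, N-nitrosomethylbenzylamine, is a nitrosamine that induces squamous tumours of the rat esophagus, and the NMBA group received it on a normal diet. The other 3 groups received NMBA together with Alpha-tocopherol, Delta-tocopherol or a gamma enriched-tocopherol, which are forms of vitamin E that differ in the methyl groups on the chromanol ring; they are called the alpha, delta and gamma-enriched groups below, and all 3 shared the NMBA treatment. The labels give no dose, route, age or time. The study asked how NMBA alters gene expression in this epithelium and whether tocopherols alter that response.

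Collagen chains are made in the endoplasmic reticulum, hydroxylated and folded into triple helices, secreted, trimmed of their end peptides and crosslinked into fibrils by lysyl oxidases. Fibronectin, matricellular proteins and small leucine-rich proteoglycans govern how fibrils and cells meet, and elastin is laid down on a scaffold of fibrillins and fibulins. In the esophagus these genes are expressed mainly by fibroblasts of the lamina propria and submucosa beneath the squamous epithelium, with a smaller part from smooth muscle and vessels.

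Values are given as log2 of the probe's signal over the 75th percentile of its array, so that 0 is the signal of that percentile and a step of 1 is a doubling. Levels of different probes cannot be compared with one another. Between 70.6% and 79.8% of the spots of an array were well above background. The arrays lay on 4 slides as the array files record them, and slide and group were largely tied: Control rats 2 to 5 and NMBA rats 1 to 4 shared slide 3, NMBA rat 5 was alone on slide 4, all 5 alpha rats and delta rats 1 to 3 were on slide 1, and delta rats 4 and 5, all 5 gamma-enriched rats and Control rat 1 were on slide 2. For the squamous epithelium named in the labels, 8 basal genes (Krt5, Krt14 and Tp63 first) and 9 suprabasal genes (Krt4, Krt13 and Ivl first) were listed. The 6 and 7 of them with a named probe were well above background on all 25 arrays. Genes of fibroblasts outside the matrix (Thy1, Twist2, Prrx1), smooth muscle (Myh11, Acta2, Cnn1), endothelium (Pecam1, Cdh5, Kdr) and macrophages (Cd68, Csf1r, Adgre1) were measured as well. In such bulk RNA, fewer fibroblasts and less matrix RNA per fibroblast cannot be told apart.

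In 3 groups, 1 rat stood apart from the rest. A matrix score was formed for each rat as the mean, over the 30 genes, of its log2 value minus the gene's mean over the 25 rats. In Control rats 1 to 5 the score was 0.33, 0.49, 0.62, 0.35 and 0.54, and in NMBA rats 0.10, 0.10, 0.21, -0.12 and -1.12. In the alpha rats it was 0.39, 0.27, -0.05, -0.84 and 0.42, in the delta rats 0.30, 0.13, -0.21, -0.03 and -0.14, and in the gamma-enriched rats -0.56, 0.11, -1.76, 0.22 and 0.24. NMBA rat 5, alpha rat 4 and gamma-enriched rat 3 were therefore low, each by more than the range of the other 4 rats of its group. Gamma-enriched rat 1 was the fourth lowest of the 25. The group scores were 0.466 ± 0.123 in Control, -0.163 ± 0.546 in NMBA, 0.0367 ± 0.523 in alpha, 0.0119 ± 0.206 in delta and -0.351 ± 0.854 in gamma-enriched rats (mean ± SD, n = 5 each). The 5 Control rats lay above all 5 NMBA rats, all 5 delta rats and all 5 gamma-enriched rats on this score, and overlapped the alpha rats.

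**Figure D1:**
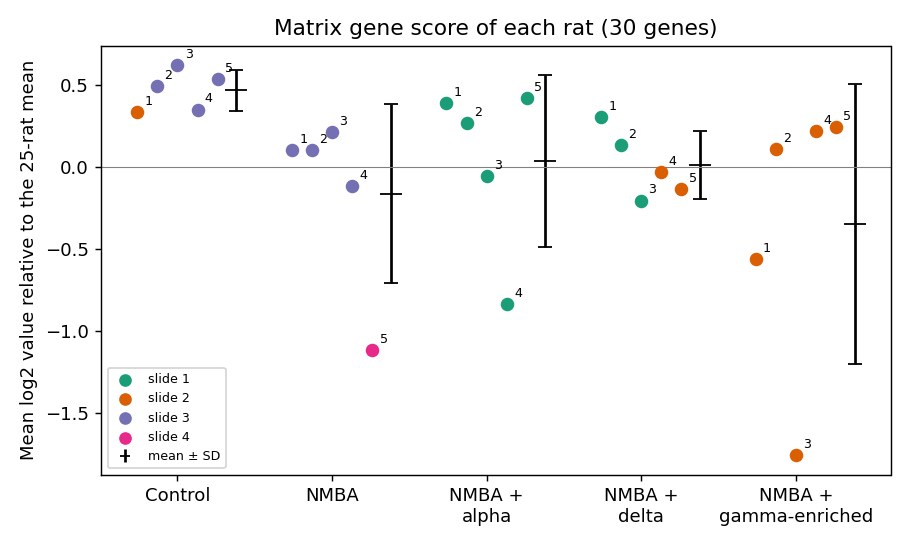
Matrix score of each rat (mean over 30 genes of the log2 value minus the gene's mean over the 25 rats, vertical axis) by group, with points coloured by slide and numbered by rat, and bars for the mean ± SD of the 5 rats. Gamma-enriched rat 3 at -1.76, NMBA rat 5 at -1.12 and alpha rat 4 at -0.84 lie far below the other rats of their groups, and the Control rats lie between 0.33 and 0.62.

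Gamma-enriched rat 3 was the lowest of all 25 rats for 28 of the 30 matrix genes and below the 4 other rats of its group for 30 of 30, with a median difference from them of -1.79. NMBA rat 5 was below the 4 other NMBA rats for 29 of 30 genes with a median difference of -1.20, and Bgn, Dcn and Sparc were among its smallest deviations. Alpha rat 4 was below the 4 other alpha rats for 27 of 30, with a median difference of -1.13. Over all 12343 genes the same position, below the 4 others, was held by 25.1% of genes in gamma-enriched rat 3, 25.6% in NMBA rat 5 and 40.3% in alpha rat 4. These counts describe rats that were picked by their low matrix score, which is built from the same 30 genes. High counts among the matrix genes thus follow in part from that choice and do not test it. The median of all genes in these rats differed from their groups by only 0.11, 0.02 and -0.14.

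**Figure D2:**
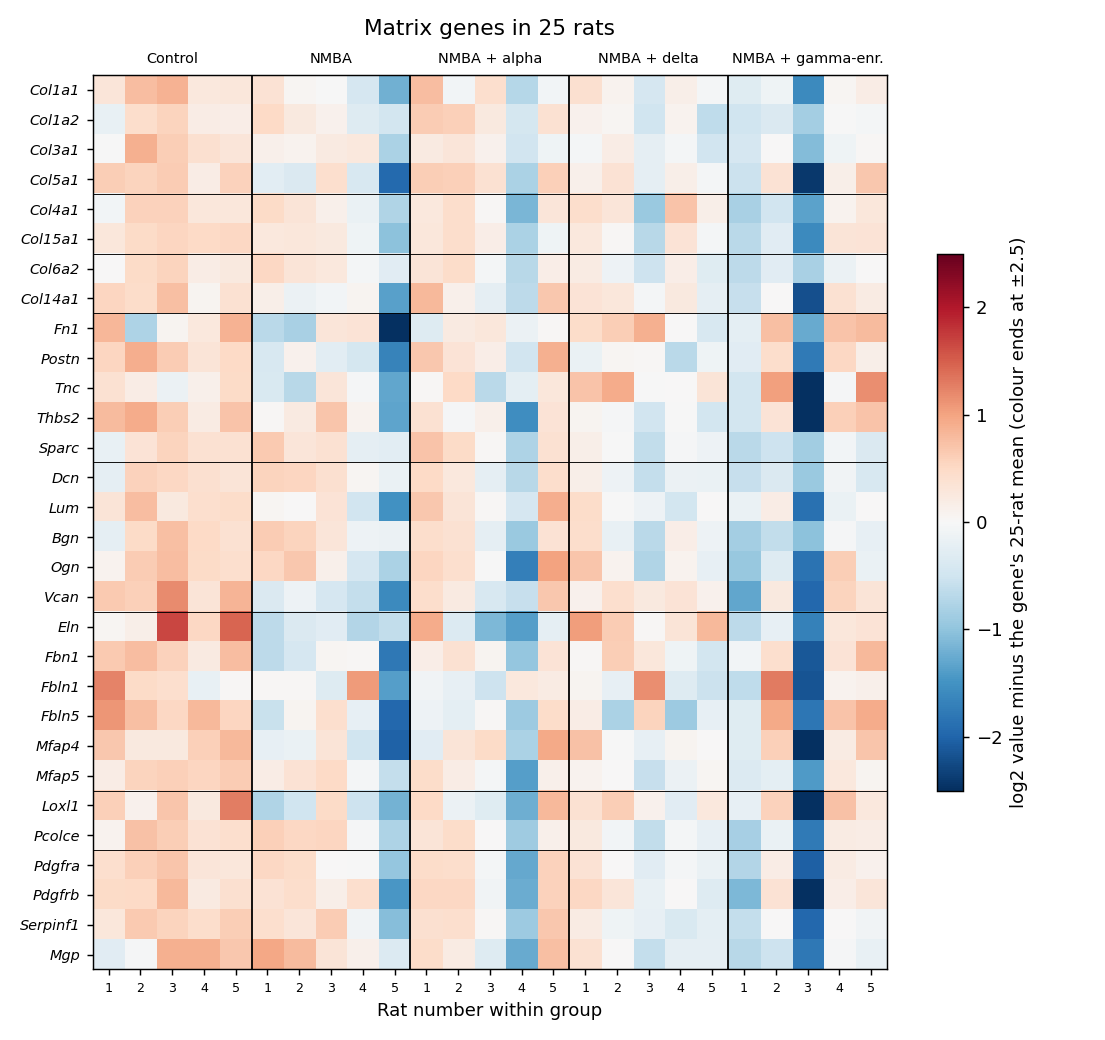
Colour map of the 30 matrix genes (rows, separated by role) in the 25 rats (columns, by group and rat number), as log2 value minus the gene's mean over the 25 rats, with the colour scale ending at ±2.5. Gamma-enriched rat 3 is blue in nearly every row, NMBA rat 5 and alpha rat 4 in most, and the Control rats are mostly red.

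Markers of several other cell types that lie beneath the epithelium were low in the same rats, but not those of all. Of 14 fibroblast genes outside the matrix, 11 in gamma-enriched rat 3, 12 in NMBA rat 5 and 13 in alpha rat 4 were below the 4 other rats of the group. The counts were 7 of 8 in each of these rats for endothelium, 7, 8 and 8 of 8 for smooth muscle, 8, 7 and 8 of 8 for macrophages, and 3, 5 and 4 of 5 for pericytes (Rgs5, Cspg4 and Kcnj8 first). Skeletal muscle genes (Acta1, Ckm and Myh4 first) went another way, with 0 of 10 below the 4 others in gamma-enriched rat 3, 4 of 10 in NMBA rat 5 and 9 of 10 in alpha rat 4. The adipocyte counts were 4, 3 and 4 of 5, and the T cell counts 7, 2 and 5 of 8, with 4 of 8 above the others in NMBA rat 5. Squamous keratinocyte genes did not share this pattern in 2 of the 3 rats. In gamma-enriched rat 3, 5 of 6 basal and 6 of 7 suprabasal genes were above the 4 other rats. In NMBA rat 5, 3 of 6 basal and 2 of 7 suprabasal genes were above the 4 others, and 0 of either list below. In alpha rat 4, 4 of 6 basal and 6 of 7 suprabasal genes were below the 4 others. The share of all genes above the 4 other rats was not counted for these 3 rats, so the counts above have no background. Basal and suprabasal medians were 0.637 and 0.624 in gamma-enriched rat 3, against 0.114 over all genes. They were 0.202 and -0.0802 in NMBA rat 5, against 0.0227, and -0.329 and -0.327 in alpha rat 4, against -0.14. The summed linear level of the fibroblast list ranged from 38.8 to 52.1 in Control, 32.1 to 53.2 in NMBA, 24.8 to 47.4 in alpha, 28.3 to 41.9 in delta and 21.5 to 40.3 in gamma-enriched rats, and these ranges overlapped. A sum is weighted by the brightest probes. The score of the same list, in which each of the 14 genes counts equally, was between 0.345 and 0.533 in Control rats, above the highest NMBA rat at 0.341, delta rat at 0.19 and gamma-enriched rat at 0.248, and overlapped the alpha rats, whose highest was 0.413. The part of tissue make-up in the differences described below was not tested.

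**Figure D3:**
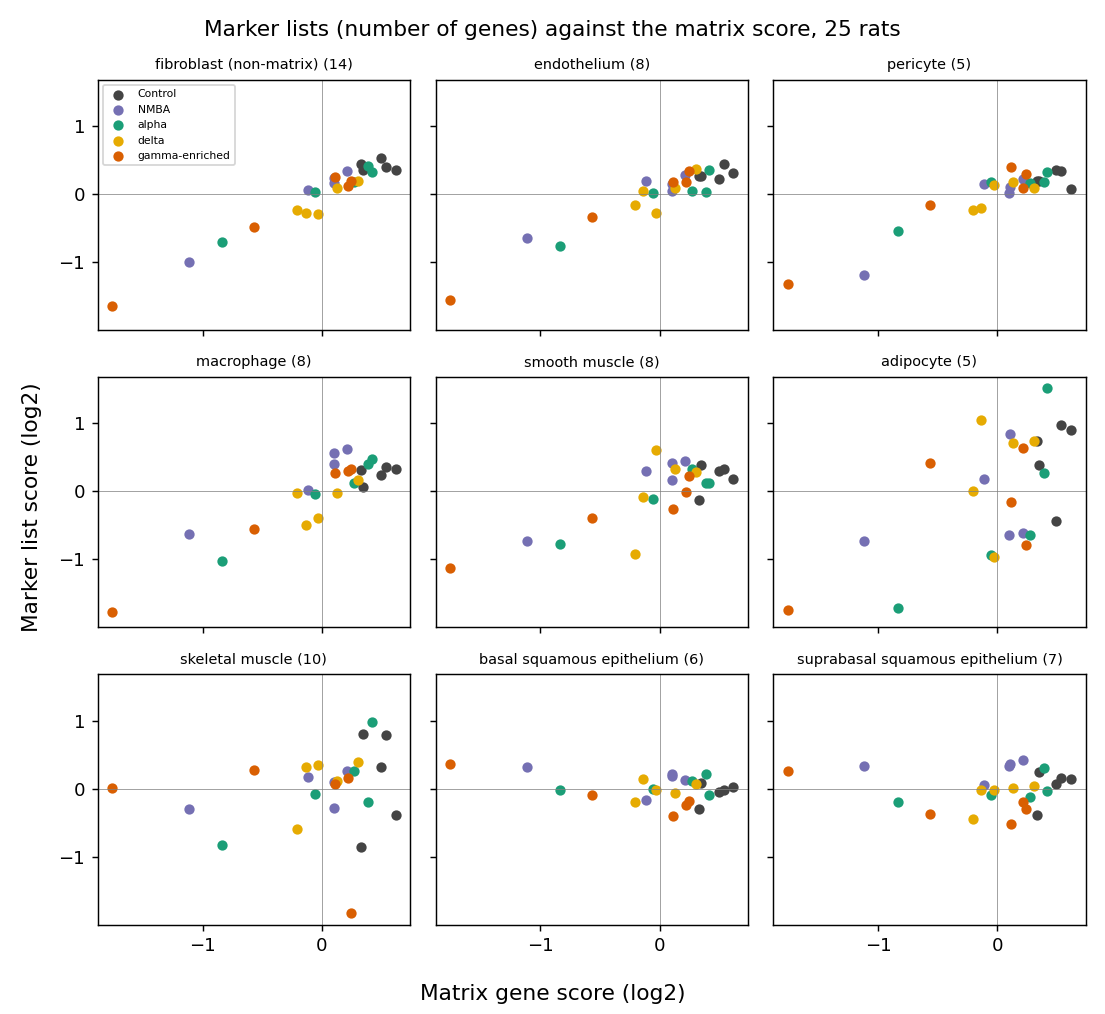
Score of 9 marker lists (vertical axes, mean log2 value relative to the 25-rat mean) against the matrix score (horizontal axes) in 25 rats coloured by group. The fibroblast, endothelium, pericyte, macrophage and smooth muscle lists are low in the 3 rats with the lowest matrix scores, whereas the basal and suprabasal lists are not low in gamma-enriched rat 3 or NMBA rat 5.

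After NMBA every matrix gene had a mean below that of Control rats, and no single gene passed the test. All 30 of 30 differences of NMBA against Control were below 0, with a median of -0.52, while 42.6% of all genes tested were below 0 and their median was 0.05. Neither direction gave a matrix gene past an adjusted p of 0.05 (limma, Benjamini-Hochberg over all genes), against 1.55% of all genes. At an unadjusted p of 0.05, 10 of the 30 were lower and 0 higher, against 4.42% of all genes lower and 8.39% higher. For 5 genes, Vcan, Eln, Fbln5, Fbn1 and Postn, all NMBA rats lay below all Control rats, against 1.49% of all genes. The difference was uneven over the list, from -1.33 for Vcan to -0.05 for Dcn. Medians of the marker lists of other cells ranged from below 0 to above 0. Of the 14 fibroblast genes outside the matrix 11 were below 0 with a median of -0.54, and the medians were -0.91 for adipocytes (4 of 5), -0.52 for pericytes (4 of 5) and -0.33 for endothelium (7 of 8). They were -0.14 for smooth muscle, -0.07 for skeletal muscle, -0.05 for macrophages, 0.17 for basal and 0.27 for suprabasal epithelium. No gene of these 9 lists passed the test, and their part in the matrix difference was not tested.

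Part of this rested on the low NMBA rat 5. Without it 28 of 30 differences were below 0 and their median was -0.28, with 0 past the test, and Mgp and Dcn turned to 0.13 and 0.06. Fewer of all genes passed without this rat than with it. Within slide 3, the 4 NMBA and 4 Control rats scanned there gave 29 of 30 below 0, a median of -0.34 against 0.02 over all genes, 0 past the test (0.251% of all genes) and 14 lower at an unadjusted p of 0.05 (5.45% of all genes). Without all 3 rats that stood apart, a choice made after seeing the data, 28 of 30 were below 0. In that setting 2 passed the test against 1.26% of all genes: Postn at -0.83 (adjusted p = 0.0352, limma) and Fbn1 at -0.85 (adjusted p = 0.0468, limma). These rats were picked by a score built from the same genes, so leaving them out narrows the spread of these genes. Postn was at -0.83 without NMBA rat 5 as well, with an SE of 0.337, against 0.192 without all 3. The 2 calls are therefore no test of the difference.

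**Figure D4:**
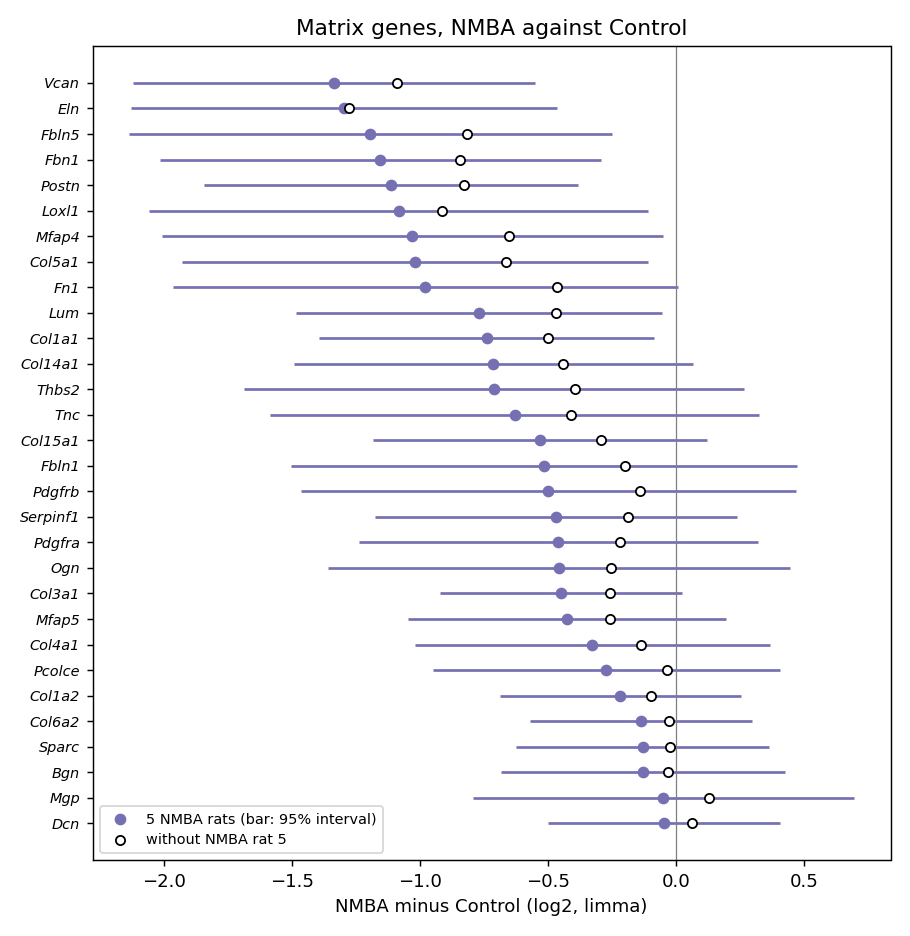
NMBA minus Control difference (log2, horizontal axis) of each of the 30 matrix genes, ordered by size. Filled points use 5 rats per group with bars for the 95% interval, and open points leave out NMBA rat 5. All filled points are below 0, and Eln, Vcan, Loxl1, Fbn1, Postn and Fbln5 remain the 6 lowest without that rat, between -1.28 and -0.82.

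Among the fibrillar collagens, the chief structural proteins of connective tissue, 4 of 4 measured genes were below Control, with a median of -0.59. Col1a1 encodes the alpha 1 chain of type I collagen and was measured by probe A_64_P040278. Col1a1 was at 3.06, 3.54, 3.64, 3.02 and 3.05 in Control rats 1 to 5 and at 3.13, 2.82, 2.76, 2.35 and 1.56 in NMBA rats 1 to 5. It was at 3.53, 2.70, 3.19, 2.05 and 2.69 in alpha, 3.17, 2.86, 2.35, 2.91 and 2.72 in delta and 2.45, 2.66, 1.18, 2.80 and 2.94 in gamma-enriched rats. From 3.26 ± 0.3 in Control to 2.52 ± 0.606 in NMBA rats (mean ± SD, n = 5 each), Col1a1 differed by -0.74 (SE 0.316, adjusted p = 0.329, limma). NMBA rat 1 lay above 3 of the 5 Control rats and NMBA rat 5 far below the others, so that the groups overlapped. The alternative Col1a1 probe, A_44_P350521, gave -0.77. Col1a2, the alpha 2 chain that joins Col1a1 in the type I trimer, differed less. Col1a2 was at 3.67, 4.31, 4.42, 4.05 and 4.03 in Control rats 1 to 5 and at 4.37, 4.11, 3.97, 3.54 and 3.40 in NMBA rats 1 to 5. It was at 4.51, 4.46, 4.12, 3.43 and 4.26 in alpha, 3.97, 3.92, 3.38, 3.96 and 3.23 in delta and 3.38, 3.51, 3.03, 3.86 and 3.82 in gamma-enriched rats. Its mean was 4.10 ± 0.29 in Control and 3.88 ± 0.4 in NMBA rats (SD, n = 5 each), a difference of -0.22 (SE 0.227, adjusted p = 0.721, limma). Its Control and NMBA ranges overlapped, with NMBA rats 4 and 5 below the lowest Control rat, and delta rats 3 and 5 were as low as NMBA rat 5. Col3a1 forms type III collagen, which co-assembles with type I in pliable tissue. Col3a1 was at 3.82, 4.73, 4.45, 4.23 and 4.14 in Control rats 1 to 5 and at 3.96, 3.93, 4.07, 4.11 and 3.06 in NMBA rats 1 to 5. It was at 4.07, 4.14, 3.94, 3.36 and 3.74 in alpha, 3.79, 4.02, 3.61, 3.79 and 3.37 in delta and 3.42, 3.84, 2.76, 3.74 and 3.87 in gamma-enriched rats. From 4.28 ± 0.34 in Control to 3.83 ± 0.437 in NMBA rats (mean ± SD, n = 5 each), Col3a1 differed by -0.45 (SE 0.228, adjusted p = 0.417, limma). Only NMBA rat 5 was below the lowest Control rat among the NMBA rats. Col5a1, a chain of type V collagen that sets fibril diameter, differed by -1.02 (SE 0.440, adjusted p = 0.334, limma), and by -0.66 without NMBA rat 5.

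Collagens of basement membranes and vessels were measured by 2 genes. Col4a1, a chain of the type IV network under epithelium and endothelium, differed by -0.33 and Col15a1, of the zone between basement membrane and stroma, by -0.53, with groups overlapping in both. Col6a2, a chain of the microfibrillar type VI collagen, differed by -0.14, and Col14a1, a collagen attached to the surface of fibrils, by -0.71. In gamma-enriched rat 3 Col14a1 was at -1.69 and in NMBA rat 5 at -0.86, below all other rats.

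Matricellular and adhesive glycoproteins had a median of -0.71, with 5 of 5 below 0. Postn, periostin, binds collagen and supports its crosslinking, and is induced in stroma around tumours. Postn was at 1.73, 2.10, 1.82, 1.52 and 1.70 in Control rats 1 to 5 and at 0.79, 1.30, 0.94, 0.76 and -0.48 in NMBA rats 1 to 5. It was at 1.87, 1.54, 1.37, 0.72 and 2.08 in alpha, 1.02, 1.24, 1.22, 0.51 and 1.08 in delta and 0.91, 1.63, -0.57, 1.72 and 1.35 in gamma-enriched rats. Its mean was 1.77 ± 0.213 in Control and 0.66 ± 0.67 in NMBA rats (SD, n = 5 each), a difference of -1.11 (SE 0.353, adjusted p = 0.139, limma). All 5 NMBA rats were below all 5 Control rats, and 4 of 5 alpha rats and 3 of 5 gamma-enriched rats were above all 5 NMBA rats. Fn1 encodes fibronectin, which links integrins to collagen and fibrin. Fn1 was at -0.11, -1.72, -0.89, -0.69 and -0.07 in Control rats 1 to 5 and at -1.62, -1.76, -0.65, -0.61 and -3.74 in NMBA rats 1 to 5. It was at -1.28, -0.73, -0.66, -1.09 and -0.93 in alpha, -0.50, -0.34, -0.06, -0.94 and -1.36 in delta and -1.20, -0.19, -2.22, -0.24 and -0.15 in gamma-enriched rats. Its mean was -0.70 ± 0.673 in Control and -1.67 ± 1.27 in NMBA rats (SD, n = 5 each), a difference of -0.98 (SE 0.477, adjusted p = 0.393, limma). The groups overlapped, and NMBA rat 5 at -3.74 lay farther below the other NMBA rats for Fn1 than for any other matrix gene. A dimmer Fn1 probe, A_64_P077570, gave 0.13 for the same difference, so the 2 probes disagreed in direction. Sparc, a collagen-binding matricellular protein, differed by -0.13, Tnc, tenascin-C, by -0.63 and Thbs2, thrombospondin 2, by -0.71. Thbs1, thrombospondin 1, was not well above background on any array, so no comparison was made.

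Proteoglycans held both ends of the list. Vcan, versican, is a large hyaluronan-binding proteoglycan of provisional matrix. Vcan was at -0.00, -0.05, 0.53, -0.33 and 0.21 in Control rats 1 to 5 and at -1.01, -0.77, -1.06, -1.24 and -2.24 in NMBA rats 1 to 5. It was at -0.21, -0.43, -1.04, -1.23 and 0.03 in alpha, -0.55, -0.24, -0.40, -0.32 and -0.54 in delta and -1.95, -0.40, -2.60, -0.10 and -0.33 in gamma-enriched rats. Its mean was 0.07 ± 0.32 in Control and -1.26 ± 0.571 in NMBA rats (SD, n = 5 each), a difference of -1.33 (SE 0.379, adjusted p = 0.0819, limma). The groups did not overlap, the highest NMBA rat being below the lowest Control rat, and the alternative Vcan probe gave -1.37. Dcn, decorin, is a small leucine-rich proteoglycan that coats collagen fibrils and binds TGF-beta. Dcn was at 3.42, 4.22, 4.17, 4.06 and 3.96 in Control rats 1 to 5 and at 4.2, 4.18, 4.05, 3.70 and 3.48 in NMBA rats 1 to 5. It was at 4.14, 3.92, 3.43, 2.96 and 4.08 in alpha, 3.80, 3.51, 3.05, 3.50 and 3.47 in delta and 3.08, 3.28, 2.73, 3.55 and 3.25 in gamma-enriched rats. From 3.97 ± 0.323 in Control to 3.92 ± 0.316 in NMBA rats (mean ± SD, n = 5 each), Dcn differed by -0.05 (SE 0.218, adjusted p = 0.95, limma). Control and NMBA rats were intermixed, and the gamma-enriched rats were low as a group. Bgn, biglycan, the closest relative of Dcn, differed by -0.13, Ogn, osteoglycin, by -0.46 and Lum, lumican, by -0.77.

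Elastic fibre and microfibril proteins had the lowest median of the 8 roles, -1.09 over 6 genes and -0.73 without NMBA rat 5. Eln encodes tropoelastin, the monomer of elastin. Eln was at 0.80, 0.90, 2.43, 1.27 and 2.20 in Control rats 1 to 5 and at 0.10, 0.40, 0.47, 0.01 and 0.14 in NMBA rats 1 to 5. It was at 1.68, 0.40, -0.38, -0.63 and 0.52 in alpha, 1.80, 1.39, 0.78, 1.07 and 1.56 in delta and 0.09, 0.55, -0.94, 1.03 and 1.08 in gamma-enriched rats. Its mean was 1.52 ± 0.75 in Control and 0.22 ± 0.198 in NMBA rats (SD, n = 5 each), a difference of -1.30 (SE 0.403, adjusted p = 0.127, limma). All NMBA rats were below all Control rats, and unlike most matrix genes Eln in NMBA rat 5 was not apart from its group. Its second probe, A_43_P15663, gave 0.04, so the probes of Eln disagreed and the difference rests on the brighter of them. Fbn1, fibrillin-1, forms the microfibrils onto which elastin is deposited and which hold latent TGF-beta. Fbn1 was at 1.31, 1.42, 1.23, 0.87 and 1.42 in Control rats 1 to 5 and at -0.01, 0.24, 0.71, 0.68 and -1.14 in NMBA rats 1 to 5. It was at 0.82, 1.04, 0.72, -0.32 and 1.0 in alpha, 0.69, 1.26, 0.94, 0.54 and 0.19 in delta and 0.59, 1.07, -1.46, 1.0 and 1.47 in gamma-enriched rats. Its mean was 1.25 ± 0.225 in Control and 0.10 ± 0.753 in NMBA rats (SD, n = 5 each), a difference of -1.15 (SE 0.416, adjusted p = 0.222, limma). The groups did not overlap, and gamma-enriched rats 2, 4 and 5 lay within or above the Control range. Fbln5, fibulin-5, tethers tropoelastin to microfibrils and lysyl oxidases. Fbln5 was at -2.57, -2.94, -3.15, -2.87 and -3.15 in Control rats 1 to 5 and at -4.24, -3.62, -3.26, -3.89 and -5.64 in NMBA rats 1 to 5. It was at -3.82, -3.92, -3.65, -4.58 and -3.22 in alpha, -3.50, -4.47, -3.13, -4.59 and -3.89 in delta and -3.99, -2.73, -5.48, -2.96 and -2.75 in gamma-enriched rats. Its mean was -2.94 ± 0.241 in Control and -4.13 ± 0.919 in NMBA rats (SD, n = 5 each), a difference of -1.19 (SE 0.456, adjusted p = 0.255, limma). Its groups were apart by a narrow margin, between -3.15 in Control and -3.26 in NMBA rats. Mfap4 and Mfap5, microfibril-associated proteins, differed by -1.03 and -0.42, and Fbln1, fibulin-1, by -0.52.

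Loxl1, a lysyl oxidase family enzyme that crosslinks elastin, was the largest difference of those processing the matrix. Loxl1 was at -0.04, -0.53, 0.05, -0.41 and 0.64 in Control rats 1 to 5 and at -1.41, -1.15, -0.17, -1.17 and -1.82 in NMBA rats 1 to 5. It was at -0.15, -0.79, -0.94, -1.87 and 0.17 in alpha, -0.27, -0.03, -0.53, -0.92 and -0.38 in delta and -0.86, -0.07, -3.20, 0.08 and -0.38 in gamma-enriched rats. From -0.06 ± 0.461 in Control to -1.14 ± 0.608 in NMBA rats (mean ± SD, n = 5 each), Loxl1 differed by -1.08 (SE 0.47, adjusted p = 0.336, limma). NMBA rat 3 lay within the Control range. Pcolce, the enhancer of procollagen C-proteinase, differed by -0.27. Of the receptors and secreted regulators, Pdgfra and Pdgfrb, the PDGF receptors of fibroblasts and pericytes, differed by -0.46 and -0.50. Serpinf1, the secreted anti-angiogenic protein PEDF, differed by -0.47, and Mgp, the matrix Gla protein that inhibits calcification, by -0.05.

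Promoter sequence is shown for 3 genes with separate NMBA and Control ranges (Postn, Fbn1, Fbln5) beside 2 genes with small differences (Col1a2, Sparc); the genes come from both ends of the list. The RefSeq table (GRCr8) had an entry for 17 of the 30 tested genes. Each line gives the 200 bases directly before the annotated start, 5′ to 3′ on the gene's strand, with capitals marking a match on either strand to 1 of 3 short promoter motifs. The first is TATAAA, the TATA box. The CCAAT box is searched by those letters. The GC box is GGGCGG.
Postn: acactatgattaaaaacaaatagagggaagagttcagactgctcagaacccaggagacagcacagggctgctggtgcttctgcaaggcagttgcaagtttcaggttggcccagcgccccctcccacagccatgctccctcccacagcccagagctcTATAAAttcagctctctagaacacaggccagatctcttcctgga
Fbn1: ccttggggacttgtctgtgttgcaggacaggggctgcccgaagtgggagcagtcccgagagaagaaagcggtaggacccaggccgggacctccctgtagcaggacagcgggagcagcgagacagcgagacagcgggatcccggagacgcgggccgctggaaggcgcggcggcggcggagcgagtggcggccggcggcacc
Fbln5: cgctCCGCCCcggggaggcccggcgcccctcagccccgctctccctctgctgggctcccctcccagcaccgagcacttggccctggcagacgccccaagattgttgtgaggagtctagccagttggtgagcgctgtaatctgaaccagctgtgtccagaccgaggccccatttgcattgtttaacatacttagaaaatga
Col1a2: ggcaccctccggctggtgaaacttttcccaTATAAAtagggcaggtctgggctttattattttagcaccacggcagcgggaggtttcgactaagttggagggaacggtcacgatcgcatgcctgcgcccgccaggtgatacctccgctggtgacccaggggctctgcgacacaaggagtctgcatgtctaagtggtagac
Sparc: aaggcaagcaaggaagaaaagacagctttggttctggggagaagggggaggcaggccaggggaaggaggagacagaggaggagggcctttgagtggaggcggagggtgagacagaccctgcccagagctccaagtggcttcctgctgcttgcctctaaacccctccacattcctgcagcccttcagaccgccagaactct
These lie on GRCr8 at chr2:140677861-140678060 (plus strand) for Postn, chr3:133203391-133203590 (minus) for Fbn1, chr6:126742707-126742906 (minus) for Fbln5, chr4:33518357-33518556 (plus) for Col1a2 and chr10:40038817-40039016 (minus) for Sparc. Postn held TATAAA at position -44 from the start and Col1a2 at -170, and Fbln5 held the reverse complement of GGGCGG at -196. Fbn1 and Sparc held none of these letters in this window. In the 250 bases before the start, TATAAA or its complement occurred in 4 of 17 matrix genes against 12.9% of 33469 promoters, CCAAT in 6 of 17 against 34.0%, and GGGCGG in 6 of 17 against 30.5%. Motifs at so short a length match by letters alone and do not show a site in use.

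Against NMBA alone, the matrix genes of each tocopherol group differed in direction, and with alpha 22 of 30 were above 0. With alpha, 8 of 30 differences were below 0, against 53.4% of all genes, with a median of 0.08, and 0 passed the test (3.82% of all genes did). At an unadjusted p of 0.05, 1 was higher (Postn) and 0 lower, against 7.31% and 11.1% of all genes. With delta, 13 of 30 were below 0, against 56.5% of all genes, with a median of 0.10, and 0 passed the test (2.49% of all genes did). By the unadjusted p, 3 were higher and 1 lower, against 5.76% and 14.3% of all genes. Postn was 1.81-fold higher with alpha, a difference of 0.85 (SE 0.353, adjusted p = 0.184, limma). It passed the test without the 3 rats that stood apart, as 3.22% of all genes did. Those rats were picked by a score of these same genes, so that call is no test of the difference. Eln was 2.14-fold higher with delta, a difference of 1.1 (SE 0.403, adjusted p = 0.122, limma), while its second probe gave -0.21. Fn1 with delta was at 1.04 by the probe used and at -0.45 by its dimmer probe, and Vcan at 0.86 and 1.07. Eln and Vcan were the 2 genes for which all delta rats lay above all NMBA rats, against 1.7% of all genes. These 3 comparisons share the 5 NMBA rats, and those of tocopherol groups against Control share the 5 Control rats. No tocopherol-treated rat shared a slide with an NMBA rat, so in these comparisons slide and treatment cannot be told apart within a slide, and a fit with slide as a block rests on the Control and delta rats that link the slides.

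With gamma-enriched tocopherol, 20 of 30 differences from NMBA were below 0, against 61% of all genes, with a median of -0.25, and 1 gene passed the test, while 8.95% of all genes did and 7.36% did so in the lower direction. This gene was Dcn, at 3.18 ± 0.304 in gamma-enriched against 3.92 ± 0.316 in NMBA rats (mean ± SD, n = 5 each), a difference of -0.74 (SE 0.218, adjusted p = 0.0358, limma), or 1.67-fold lower. The highest gamma-enriched rat at 3.55 was above NMBA rat 5 at 3.48 and below the other 4 NMBA rats. The call was lost with slide as a block (-0.17, adjusted p = 0.998, limma), and with quantile scaling (-0.35, adjusted p = 0.292, limma). It was also lost without NMBA rat 1, 2 or 3 or without gamma-enriched rat 1, 2, 3 or 5, where the adjusted p was between 0.0563 and 0.101 (limma). Bgn at -0.80, Mgp at -1.02, Sparc at -0.67 and Col6a2 at -0.53 had an unadjusted p under 0.05 and did not pass. The second Bgn probe, A_64_P059895, gave 0.11, so the probes of Bgn disagreed in direction. With Dcn these were 5 lower genes and 0 higher, against 19.6% and 6.61% of all genes, so the share was near the background. Without the 3 rats that stood apart, picked by a score of these same genes, 3 genes passed, against 11% of all genes. The members differed in direction: matricellular and elastic fibre genes had medians of 0.26 and 0.20 while proteoglycans and receptors had medians of -0.55 and -0.57. Fn1 was at 0.87 by the probe used and at -0.77 by its dimmer probe. Medians were -0.335 for fibroblast genes outside the matrix, -0.507 for smooth muscle, -0.301 for basal and -0.643 for suprabasal genes, and 0.231 for adipocytes. Past the test as lower were 5 of 7 suprabasal genes, 6 of 8 T cell genes, and 1 each of basal, fibroblast and macrophage genes. No smooth muscle, skeletal muscle, endothelial, pericyte or adipocyte gene passed. The part of these cells in the matrix differences was not tested.

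**Figure D5:**
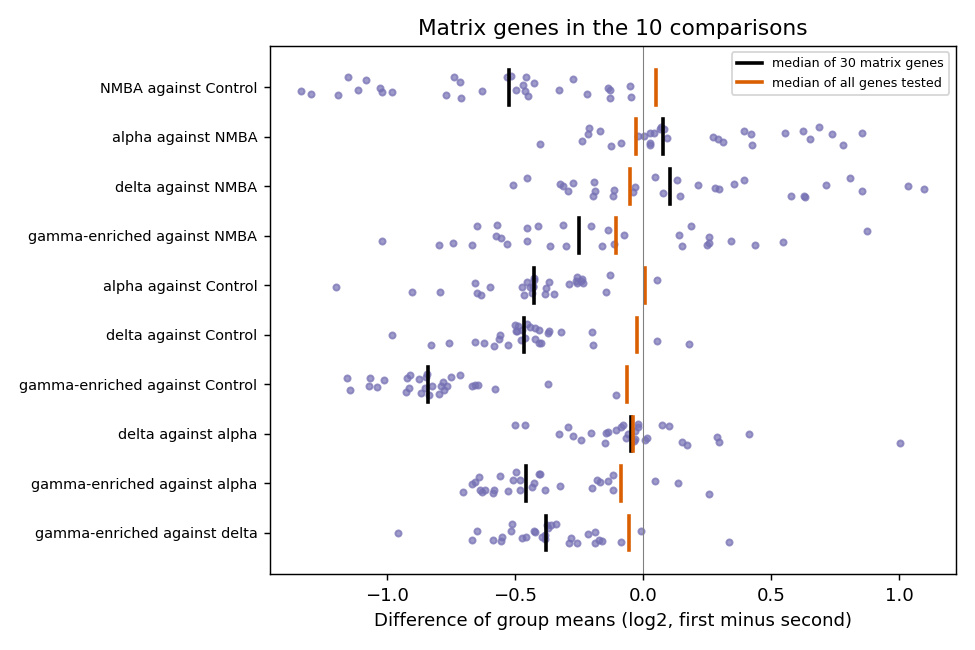
Differences of group means (log2, horizontal axis) of the 30 matrix genes (points, spread vertically for visibility) in the 10 comparisons, with black lines at their median and orange lines at the median of all 12343 genes tested. The matrix median lies at -0.52, -0.43, -0.47 and -0.84 in the 4 comparisons with Control, where the median of all genes lies between -0.06 and 0.05.

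In each of the other NMBA-treated groups the median matrix gene was also below Control. The gamma-enriched group had 30 of 30 differences below 0, against 57.8% of all genes, with a median of -0.84. At an unadjusted p of 0.05, 21 were lower and 0 higher, against 12.2% and 6.18% of all genes, and 0 were past the test, which 0.632% of all genes passed. Col1a1, Lum, Pdgfra and Serpinf1 had all gamma-enriched rats below all Control rats, 4 of 30 against 1.63% of all genes. The marker lists given here also had medians below 0. Of fibroblast genes outside the matrix, 14 of 14 were below 0 with a median of -0.76. So were 8 of 8 macrophage genes with -0.555, 8 of 8 smooth muscle genes with -0.55 and 8 of 8 endothelial genes with -0.49. The medians were -0.69 for adipocyte, -0.45 for skeletal muscle, -0.39 for pericyte, -0.14 for basal and -0.455 for suprabasal genes, and the part of these cells in the matrix difference was not tested. Receptors and secreted regulators had a median of -1.05, which was -0.62 without the 3 rats that stood apart, and their place among the roles changed with the setting. Eln differed by -1.16 (SE 0.403, adjusted p = 0.155, limma) by its brighter probe and by -0.22 by its second. Col4a1 and Bgn were at -0.78 and -0.93 by the probes used. Their dimmer probes gave 0.30 and -0.16, so those of Col4a1 disagreed in direction. The second probes of Col1a1, Col14a1, Fn1, Vcan and Pcolce also gave values below 0. Without gamma-enriched rat 3 the median was -0.54 with 28 of 30 below 0. With slide as a block it was -0.68 with 30 of 30 below 0. Leaving out Control rat 1, which shared slide 2 with the gamma-enriched rats, left a median of -0.88 and 4 genes past the test. Calls over all genes also rose when that rat was left out.

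In the alpha group 29 of 30 differences from Control were below 0, against 49.1% of all genes, with a median of -0.43, and 0 passed the test (0.818% of all genes did). By the unadjusted p, 2 were lower and 0 higher, against 5.34% and 8.33% of all genes. Eln was at -1.20 (SE 0.403, adjusted p = 0.161, limma) and by its second probe at -0.26, and Fbln5 alone had all alpha rats below all Control rats, against 1.27% of all genes. Without the 3 rats that stood apart, alpha rat 4 among them, 25 of 30 were below 0 and the median was -0.15. In the delta group, which held none of those rats, 28 of 30 were below 0, against 53.9% of all genes, with a median of -0.47, and 0 passed the test (0.194% of all genes did). Before adjustment, 4 were lower and 0 higher, against 5.07% and 5.71% of all genes. Postn, Thbs2, Mfap5 and Serpinf1 had all delta rats below all Control rats, against 1.5% of all genes. Tnc at 0.18 and Fn1 at 0.06 were the genes above 0 by the probes used. The dimmer Fn1 probe gave -0.32 and the dimmer Col4a1 probe 0.55.

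The 3 tocopherol groups were compared in 3 pairs, with p-values adjusted over all genes in each, and their doses are unknown here. Delta against alpha had a median of -0.05 with 20 of 30 below 0, against 57.7% of all genes. The test was passed by 0 matrix genes and by 0% of all genes. By the unadjusted p, 0 were lower and 1 higher, against 2.82% and 1.81% of all genes. The higher gene was Eln, a difference of 1.0 with a 95% interval of 0.17 to 1.84 (adjusted p = 1, limma), and 0.09 by its second probe. Gamma-enriched against alpha had a median of -0.46 with 27 of 30 below 0, against 61% of all genes, and 0 past the test (1.62% of all genes passed). Before adjustment, 4 were lower and 0 higher, against 10.1% and 4.53% of all genes, led by Sparc at -0.67 (95% interval -1.16 to -0.18) and Col1a2 at -0.63 (-1.11 to -0.17). Without the 3 rats that stood apart, picked by a score of these same genes, Col1a2 and Sparc passed the test, 2 of 30 against 5.98% of all genes. In that setting 22 of 30 differences were below 0 and the median was -0.33. Gamma-enriched against delta had a median of -0.38 with 29 of 30 below 0, against 60.4% of all genes, and 0 past the test (0% of all genes). At an unadjusted p of 0.05, 1 was lower and 0 higher, against 2.69% and 1.39% of all genes, and the lower gene was Eln at -0.96 (95% interval -1.79 to -0.13), with -0.06 by its second probe. Without those 3 rats its median was -0.02 with 18 of 30 below 0. On slide 2 alone, which held 5 gamma-enriched rats, rat 3 among them, and 2 delta rats, 25 of 30 differences were below 0, against 59.2% of all genes. On slide 1 alone, with 3 delta and 5 alpha rats, rat 4 among them, 18 of 30 differences of delta against alpha were below 0, against 57% of all genes.

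Col1a1 varied from rat to rat together with the 5 matrix genes it was set against. Over the 25 rats Col1a1 followed Col1a2 with r = 0.779 and rho = 0.716, Col3a1 with r = 0.838 and rho = 0.652, and Col4a1 with r = 0.821 and rho = 0.682. It followed Postn with r = 0.793 and rho = 0.568, and Dcn with r = 0.676 and rho = 0.597. These were 5 pairs, tested by two-sided permutation (100000 resamples, Benjamini-Hochberg over the pairs). The permutation p of r was 1e-05 for Col1a2, Col3a1 and Col4a1, the smallest that these permutations can give, 2e-05 for Postn and 0.00019 for Dcn, with adjusted permutation p from 1.67e-05 to 0.00019. For rho the permutation p lay between 7e-05 and 0.00344 and the adjusted permutation p between 0.00035 and 0.00344. The rats shared arrays of 1 platform and the genes of a rat shared 1 hybridisation.

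By r the relation held on deviations from group means and without the lowest rats, and by rho 15 of 50 alternatives did not pass. On deviations from the group means r was between 0.747 and 0.818 for the 5 pairs. Without gamma-enriched rat 3 and NMBA rat 5, the 2 rats farthest from the Col1a1 median, r was between 0.520 for Postn and 0.732 for Col4a1, and without all 3 rats that stood apart between 0.451 and 0.691. By rho, Postn did not pass without those 3 rats (rho = 0.38, adjusted permutation p = 0.0832). Within slides of 8 rats each, r was between 0.458 and 0.742 on slide 1, between 0.774 and 0.924 on slide 2 and between 0.701 and 0.943 on slide 3. On slide 1 the exact permutation p, adjusted over the pairs, lay between 0.0731 and 0.255 and did not pass. On slide 3 Col3a1 did not pass (exact permutation, adjusted p = 0.0533). By rho no pair passed on slide 1 or slide 2 (exact permutation, adjusted p from 0.138 to 0.462), and on slide 3 Col1a2 and Col4a1 passed. Slide 4 held 1 rat, so no value could be had there.

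Few other genes of the pathway passed the test. Of 21 tested genes of collagen biosynthesis and crosslinking, 17 were below 0 after NMBA with a median of -0.26 and 0 passed the test, the largest being the prolyl hydroxylase subunits P4ha3 at -0.99 and P4ha2 at -0.79. Ppib, the prolyl isomerase cyclophilin B that folds procollagen, fell in the delta group (-0.40, SE 0.105, adjusted p = 0.0475, limma) and the gamma-enriched group (-0.44, SE 0.105, adjusted p = 0.0126, limma) against NMBA. Its values were 3.18, 3.17, 3.38, 3.42 and 3.24 in NMBA rats, 2.77, 2.94, 3.0, 2.84 and 2.87 in delta rats and 2.76, 2.93, 3.05, 2.89 and 2.59 in gamma-enriched rats. All rats of both tocopherol groups lay below all NMBA rats. Without the 3 rats that stood apart, such separation from NMBA held for 6.54% of all genes with delta and 13% with gamma-enriched. The delta call was lost in 14 of 20 alternatives, among them every one that left out a single NMBA or delta rat (largest adjusted p = 0.663, limma), and the gamma-enriched call was lost with quantile scaling (-0.17, adjusted p = 0.477, limma). Loxl4, a lysyl oxidase, fell in the gamma-enriched group against NMBA (-0.79, SE 0.194, adjusted p = 0.0138, limma). Of 9 tested laminins and other basement membrane genes, Lamc3, a laminin gamma chain, fell in that comparison (-1.06, SE 0.202, adjusted p = 0.00416, limma). With slide as a block, Ppib was at -0.51, Loxl4 at -0.08 and Lamc3 at -0.53 in gamma-enriched against NMBA, and none of the 3 passed (adjusted p = 0.998 each, limma). In gamma-enriched against NMBA the calls were 2 of 21 biosynthesis genes and 1 of 9 basement membrane genes, where 8.95% of all genes passed, so these shares were near the background. In delta against NMBA the call was 1 of 21 biosynthesis genes, where 2.49% of all genes passed. Loxl4 also missed the test with the mean of its probes (adjusted p = 0.0537, limma).

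Of 20 tested genes of the TGF-beta pathway, which drives fibroblasts to make collagen, 15 were below 0 after NMBA with a median of -0.21, Ltbp2, a latent TGF-beta binding protein, at -1.86 and Tgfb2 at -0.72. None of the 20 passed the test in any of the 10 comparisons. Of the 4 PDGF ligands 3 were below 0, Pdgfc at -0.73 and Pdgfa at -0.46, and of 5 collagen receptors 4, Ddr2 at -0.66 and Itga10 at -0.54. Of 11 other collagens 7 were below 0, Col11a1 at -1.78 and Col2a1 at -1.72, and of 15 further small leucine-rich proteoglycans and microfibril proteins 14, Epyc at -1.97 and Comp at -1.49. None of these genes passed in any of the 10 comparisons. By contrast, 6 of 8 T cell genes (Cd3e, Cd3d and Cd3g first) passed the test as higher after NMBA, with a list median of 1.13. Of all genes, 1.55% passed in either direction. The score of that list was between 0.251 and 1.31 in NMBA rats and between -0.654 and 0.147 in Control rats, so the groups did not overlap. Within slide 3 the 6 differences were between 0.768 and 1.92 and 0 passed, where 0.251% of all genes did. With slide as a block 1 passed, without NMBA rat 5 2 passed, and leaving out any other single rat left 3 to 6. Calls over all genes also fell within slide 3, with slide as a block and without NMBA rat 5.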

How the data were processed

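Array files held spot intensity, background-subtracted and detrended within each array per the file headers, which name Feature Extraction 11.5.1.1 (version 10.7 per the submitters' processing notes). The deposited value table is on a log2 scale with each column's 75th percentile near 0; every column followed its array with r = 1 as rounded. The authors' steps between are not stated.

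Spots called non-uniform or outliers were dropped, spots of a probe averaged as log2 processed signal, and the array's 75th percentile subtracted, with no pseudocount. Symbols came through RefSeq accessions (GRCr8, names only); 18355 of 30367 probes matched. Probes well above background on at least 5 arrays were kept, and each gene took its brightest, leaving 12343 genes. limma 3.58.1 (R 4.3.3) fitted 5 group means to 25 arrays, checked on simulated data; a call is an adjusted p (Benjamini-Hochberg) under 0.05. The number of arrays limits precision. Replicates are separate rats.

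The members, marker and pathway lists were chosen with earlier results of these data known. Text names Col1a1, Col1a2, Col3a1, Fn1, Dcn, Postn, Thbs1, the 6 largest NMBA against Control differences and called members in full, other members by value or range, and per pathway list the called or 2 largest. Normexp used median spot and background signals, since the files hold no mean signal. Permutations used numpy 2.4.6. Results of 1 further marker list are not reported here.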

Additional observations from a re-analysis of the deposited data

Results flagged for a closer look

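In the NMBA group the matrix score of rat 5, -1.116 on the log2 scale, lay far from the other 4 rats: its gap to the nearest of them was 0.754 of the whole range, above the 95% critical value of Dixon's test for 5 samples. The scores of alpha rat 4 and gamma-enriched rat 3 did not pass this rule. By the same rule Col3a1 in NMBA rat 5 (3.056, ratio 0.829), Fbn1 in alpha rat 4 (-0.3212, ratio 0.763), Col1a1 in gamma-enriched rat 3 (1.176, ratio 0.723) and Loxl1 in gamma-enriched rat 3 (-3.199, ratio 0.714) stood apart. The rule was applied to 60 sets of 5 rats, the score and 11 genes in 5 groups, and 5 passed, where chance alone passes about 1 in 20. Over all 30 genes it picked NMBA rat 5 for 3 genes, alpha rat 4 for 5 and gamma-enriched rat 3 for 3, and no other rat of those groups. In Control it picked rat 1 for 3 genes and rat 4 for 1, and in delta rat 1 for 1.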

How the results depend on the processing

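The median matrix difference kept its sign under all alternatives run in the 4 comparisons with Control, between -0.651 and -0.276 for NMBA and between -0.975 and -0.544 for gamma-enriched tocopherol. It crossed 0 for alpha against NMBA (-0.136 to 0.375), delta against NMBA (-0.182 to 0.187), gamma-enriched against NMBA (-0.487 to 0.0915) and delta against alpha (-0.308 to 0.079). Of gamma-enriched against NMBA, 1 gene was called in the main setting, 0 with quantile scaling, with slide as a block and with the replicate block, and 5 with no filter on dim probes. Leaving out single rats gave 0 to 3 calls there and 0 to 3 for gamma-enriched against alpha (3 without alpha rat 4). For gamma-enriched against Control it gave 0 to 4, with 4 without Control rat 1, where 697 of all genes were called. With no filter on dim probes, 1 gene was called in alpha against NMBA and 1 in delta against NMBA. The 3 rats that stood apart were chosen after seeing the data, by a score of the same genes, so calls without them are no test. Without those rats, calls were 2 for NMBA against Control and 1 for alpha against NMBA. They were 3 for gamma-enriched against NMBA and 2 for gamma-enriched against alpha. The cause of these changes was not tested. Within slide 1 the correlation of Col1a1 was 0.722 with Col1a2, 0.73 with Col3a1, 0.458 with Postn, 0.686 with Dcn and 0.742 with Col4a1, and within slide 3 it was 0.701 with Col3a1, each with 8 rats and an adjusted p above 0.05; by r the other 44 of 50 alternatives for these pairs kept sign and call. By rho 15 of the 50 did not pass, among them all 5 pairs on slides 1 and 2 and Col4a1 with the mean of probes (rho = 0.354, adjusted permutation p = 0.0822), and none turned negative. Rat numbers did not pair the rats: over 50 same-numbered pairs the correlation of deviations ran from -0.584 to 0.529, 12 were above 0.1, and 1 of 25 rats correlated best with its own number. With the replicate block Dcn was at -0.742 (adjusted p = 0.0542, limma) in gamma-enriched against NMBA, and no other member call changed. The share of higher calls over all genes for gamma-enriched against Control was 57.7% in the main setting, 83.3% with normexp and 69.6% with quantile scaling, and for delta against Control it was 87.5% in the main setting and 71.9% with normexp. Counts of calls over all genes moved more than those of the matrix genes. NMBA against Control had 191 calls in the main setting, 62 with slide as a block, 31 within slide 3 and 96 without NMBA rat 5. With slide as a block, each tocopherol group against NMBA had 1 call, where the main setting gave 471 for alpha, 307 for delta and 8.95% of all genes for gamma-enriched; with no filter on dim probes these were 2141, 961 and 3321. Gamma-enriched against Control had 78 calls, 30 with normexp, 4 with slide as a block and 697 without Control rat 1, and gamma-enriched against alpha had 200, 63 with normexp and 0 with slide as a block. Slide and treatment cannot be told apart in the comparisons of tocopherol groups with NMBA, and 5 rats per group limit the precision of all of these values.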
